A study of Mus musculus with 48 samples.

Results

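The protein genes of the small cytosolic ribosomal subunit were followed in messages bound to astrocyte ribosomes. They were chosen by symbol, as the protein-coding genes named Rps with a number (with the usual a, x, l or 1 endings), plus Rpsa and Fau, and without kinases or pseudogenes. This gave 33 genes among the 47643 in each file. The mice were Aldh1l1:L10a-eGFP animals of the line JD130Htz, in which the Aldh1l1 promoter drives, in astrocytes, a large subunit protein (L10a) fused to green fluorescent protein. Every sample carried that transgene, so there was no untagged control among the samples used, and no treatment is labelled. Age and sex were not given in the sources used here. Tagged polysomes were pulled from dorsal hippocampus of 3 animals (C1, C2 and C3, here animals 1 to 3) with a GFP antibody. From each animal there was 1 library of whole astrocytes, called Astro here, and 1 of perisynaptic astrocytic processes, called PAP, the fine astrocyte endings that surround synapses. Each library was sequenced as 8 technical replicates, 48 samples in all, which were summed to 6 libraries. The comparison of PAP with Astro asks which messages are ribosome-bound near the synapse.

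The small subunit holds the messenger RNA and reads its codons. Its head and body close around the message, and its proteins stabilise the ribosomal RNA and line the paths by which the message enters and leaves. Most ribosomal protein messages start with a run of pyrimidines, the terminal oligopyrimidine tract, through which growth signals acting by mTOR and the protein Larp1 set their translation. Messages for ribosomal proteins are also a common component of the RNA found in the distal processes of neurons and glia.

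The Astro libraries held 18707844 to 20293538 counts and the PAP libraries 1829962 to 2980984. A count was seen for 19154 to 20000 genes in the Astro libraries and for 11783 to 12378 in the PAP libraries. Of the 14618 genes tested, 20.4% stood at 0 in some PAP library and at 50 or more counts in another, against 0.28% among the Astro libraries; no small subunit gene was among either. The lowest count of a small subunit gene in any library was 622. The labels name no molecular identifiers and the cDNA was amplified, so reads are not independent molecules and the error used below is the spread between animals. Of 10 astrocyte markers, 4 fell in PAP (Aldh1l1, Slc1a3, Gjb6 and Sox9) and none rose, with sums of 16500 to 23800 CPM (each count as a rate of the library's scaled total) in Astro and 3050 to 11400 in PAP. Of 5 tested genes of a list for B lineage and plasma cells, Jchain, Mzb1 and Igkc rose and Ighm fell; the summed list stood at 38.5 to 61.6 CPM in Astro and 2690 to 5680 CPM in PAP, where Cd79a and Ighm were at 0. Neuronal markers summed to 666 to 1200 CPM in Astro and 463 to 1330 CPM in PAP, with Syt1 higher and Snap25 lower. Of 6 microglial markers tested, Cx3cr1, P2ry12 and Tmem119 fell and none rose; the sums were 23.1 to 51.6 CPM in Astro and 21.4 to 31.0 CPM in PAP, where these 3 and Aif1 were at 0. No tested oligodendrocyte, endothelial or red blood cell marker was called; their sums ran 777 to 844, 4.44 to 5.02 and 12.6 to 22.1 CPM in Astro and 474 to 959, 4.10 to 24.4 and 2.63 to 454 CPM in PAP. The part of these other cells in the results below was not tested.

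All 33 small subunit genes rose in PAP and none fell, where a call means an edgeR adjusted p under 0.05 over all 14618 genes. Among all genes tested, 5.92% were called higher and 15.4% lower. The median log2 fold change of the 33 genes was 3.28, and that of all genes tested was -0.53. The latter depends on the fit: it was -0.95 to -0.86 without 1 PAP library, where the 33 genes had 3.10 to 3.42, and -1.63 with the animal as a block, where they had 3.25. The median of all genes was -0.40 to -0.37 without 1 Astro library. After thinning the libraries to equal depth it was -0.16, and 339 of 10945 genes were called higher and 209 lower. Values below are CPM scaled by TMM factors (trimmed mean of M-values), which adjust each library for its composition. In these units the PAP libraries did not overlap the Astro libraries for any of the 33 genes, against 10.9% of all genes tested, and each gene was higher in PAP than in Astro in each of the 3 animals. Mean levels were over 10-fold higher for 15 of the 33. In bulk pull-downs, a change in how many cells or processes were captured and a change in message per cell cannot be told apart.

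**Figure D1:**
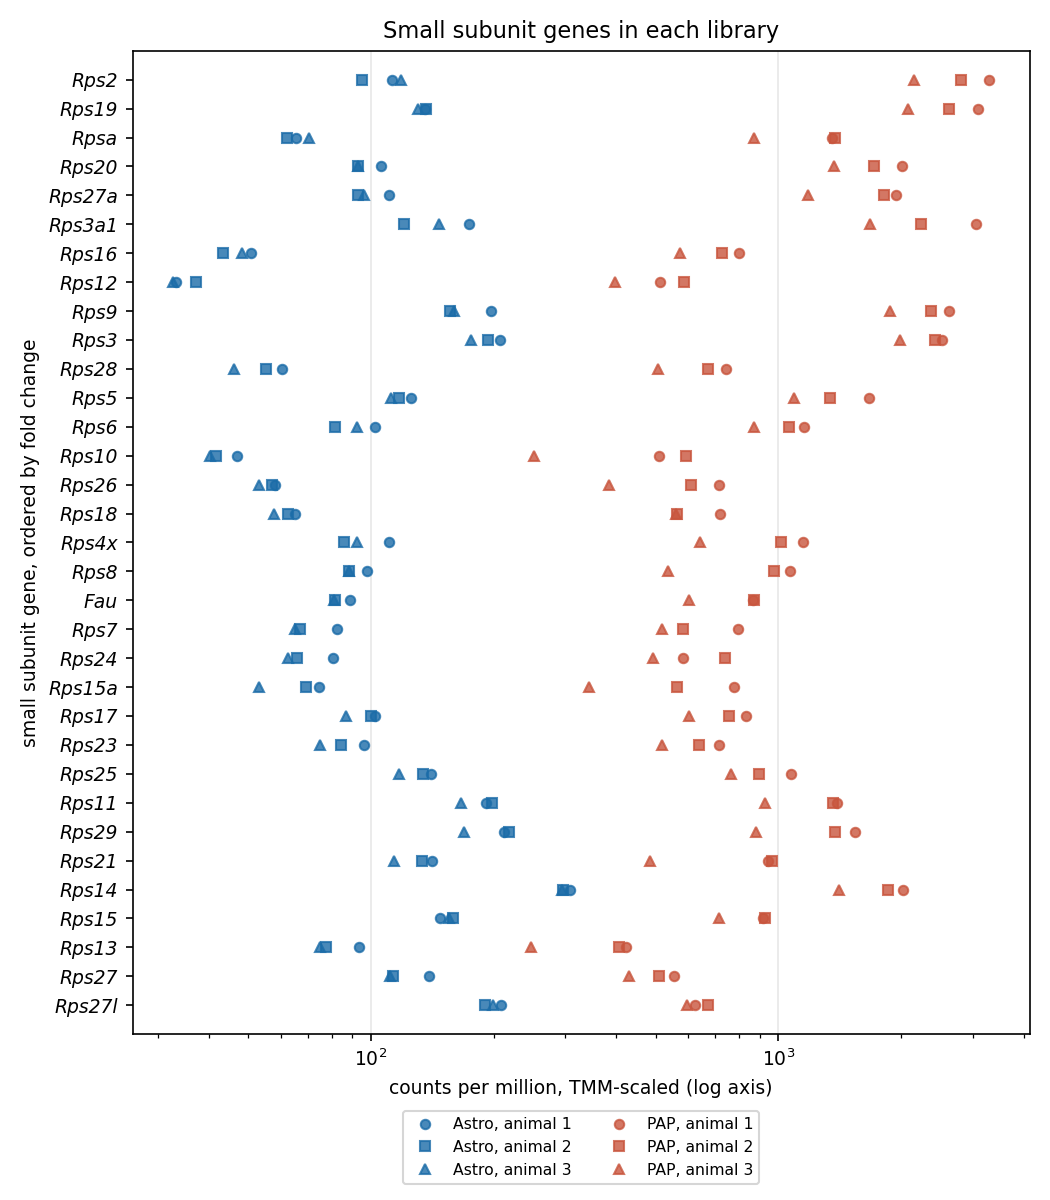
TMM-scaled CPM (log axis) of the 33 small subunit genes in each library, ordered by fold change; blue points are Astro, red points PAP, and marker shapes are the 3 animals. Every PAP point lies to the right of the gene's Astro points, from Rps2 (95.1 to 118 CPM against 2157 to 3286 CPM) to Rps27l (190 to 209 CPM against 595 to 670 CPM).

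The animal number joins an Astro library and a PAP library from the same mouse. With the animal as a block, 27 of the 33 genes stayed called, while the share of all genes called higher fell to 0.876%. The 6 genes that lost the call were Rps27l (edgeR adjusted p = 0.177), Rps13 (0.175), Rps27 (0.130), Rps21 (0.0659), Rps10 (0.0615) and Rps15 (0.0597). Without the Astro library of animal 1, 2 or 3, the calls numbered 22, 25 and 25, beside 0.881%, 0.954% and 1.05% of all genes tested in those fits, and without the PAP library of animal 1, 2 or 3 they stayed at 33, beside 5.75%, 6.74% and 7.57%. Within animals 1, 2 and 3 the median log2 ratio of PAP to Astro over the 33 genes was 3.45, 3.46 and 2.89.

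**Figure D2:**
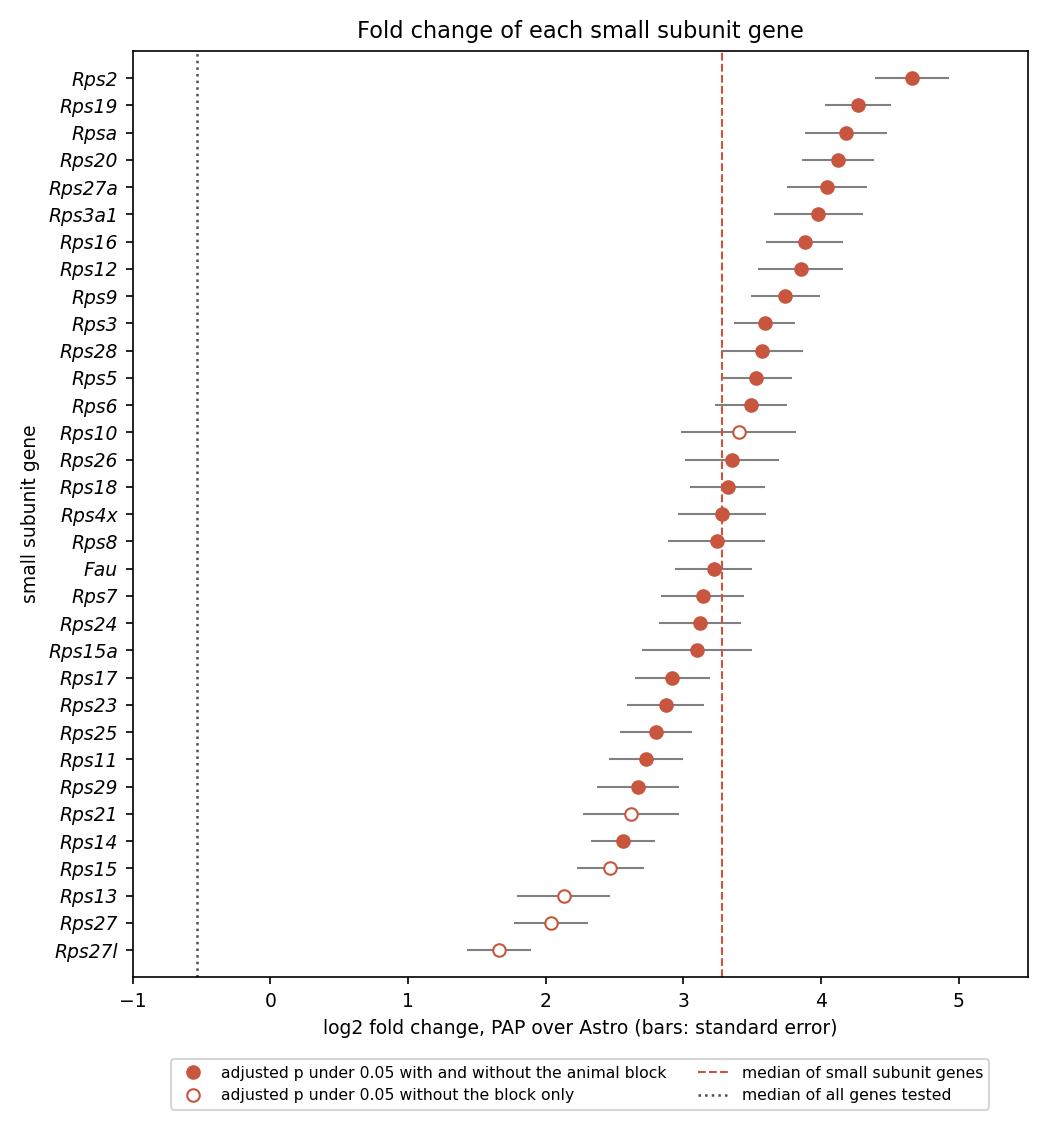
Log2 fold change of PAP over Astro for each small subunit gene with its standard error; open circles mark the 6 genes called only without the animal block. The 33 values run from 1.66 (Rps27l) to 4.66 (Rps2), all to the right of the median of all genes tested at -0.53 (dotted line).

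Rps2, a body protein at the entrance of the message channel, had the largest change. It lies on chr17:24718116-24721929 (mm10, plus strand). It stood at 113, 95.1 and 118 CPM in the Astro libraries of animals 1, 2 and 3 and at 3286, 2809 and 2157 CPM in the PAP libraries. The lowest PAP library was far above the highest Astro library. The log2 fold change was 4.66 (SE 0.27, edgeR adjusted p = 0.00196).

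Rps19, a head protein whose loss causes Diamond-Blackfan anaemia in people, lies on chr7:24884371-24889806. Its Astro libraries were close to one another at 136, 137 and 130 CPM, and its PAP libraries reached 3081, 2620 and 2077 CPM. The groups were widely apart (log2 fold change 4.27, SE 0.24, edgeR adjusted p = 0.00196). Rpsa, first known as a laminin receptor precursor and placed on the solvent side between head and body, lies on chr9:120127689-120132369. Its levels were 65.3, 62.4 and 70.5 CPM in Astro and 1355, 1377 and 873 CPM in PAP. The PAP library of animal 3 was the low one, still above every Astro library (log2 fold change 4.18, SE 0.30, edgeR adjusted p = 0.00211).

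Rps20, a head protein, stood at 106, 92.7 and 92.7 CPM in Astro and at 2005, 1712 and 1365 CPM in PAP, a log2 fold change of 4.12 (SE 0.26). Rps9, a body protein at the message entry, stood at 197, 156 and 160 CPM in Astro and at 2625, 2364 and 1879 CPM in PAP (log2 fold change 3.74, SE 0.25). Both genes had PAP libraries well clear of the Astro range. Rps6, the protein phosphorylated by kinases downstream of mTOR, lies on chr4:86854660-86857412. It stood at 102, 81.4 and 92.2 CPM in Astro and 1156, 1062 and 873 CPM in PAP. Its log2 fold change of 3.49 (SE 0.26, edgeR adjusted p = 0.00211) was near the middle of the subunit.

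A pair of members is made as a fusion with a ubiquitin or ubiquitin-like protein that is cut off after translation. Rps27a carries ubiquitin itself and lies on chr11:29545846-29548109. Its libraries were at 111, 93.0 and 96.0 CPM in Astro and at 1941, 1819 and 1183 CPM in PAP, without overlap (log2 fold change 4.04, SE 0.29, edgeR adjusted p = 0.00211). Fau carries a ubiquitin-like protein and lies on chr19:6057844-6059524. It stood at 88.6, 81.8 and 81.0 CPM in Astro and at 865, 871 and 602 CPM in PAP, again apart but by less (log2 fold change 3.22, SE 0.28, edgeR adjusted p = 0.00308).

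The smallest changes belonged to Rps27l, Rps27 and Rps13. Rps27l, a paralog of Rps27, lies on chr9:66946086-66949516. It stood at 209, 190 and 200 CPM in Astro, among the higher levels of the subunit there, and at 626, 670 and 595 CPM in PAP. The groups did not overlap and the rise was the smallest of the subunit (log2 fold change 1.66, SE 0.23, edgeR adjusted p = 0.0164). Rps27, on chr3:90212522-90213651, stood at 139, 113 and 111 CPM in Astro and at 553, 510 and 431 CPM in PAP (log2 fold change 2.04, SE 0.27, edgeR adjusted p = 0.0139). Rps13, a body protein that bridges to the large subunit, lies on chr7:116331505-116334195. Its Astro libraries were at 93.4, 77.7 and 74.9 CPM and its PAP libraries at 421, 406 and 247 CPM (log2 fold change 2.13, SE 0.34, edgeR adjusted p = 0.0208). In Rps13 animal 3 had the low PAP library, while the PAP libraries of Rps27l lay close together.

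Rps4x, the X-linked copy of its protein, stood at 111, 85.6 and 92.5 CPM in Astro and at 1147, 1015 and 643 CPM in PAP (log2 fold change 3.28, SE 0.32). A related locus, Rps4l, matches the symbol rule but is annotated as a transcribed processed pseudogene and was not counted as a member. It had 457, 339 and 345 counts in Astro and 0, 128 and 0 counts in PAP. Those PAP values gave no call (log2 fold change 0.09, SE 2.17, edgeR adjusted p = 0.989).

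The rest of the subunit rose by log2 fold changes of 2.47 (Rps15, at the top of the head) to 3.98 (Rps3a1, on the platform side of the body). Placed by their position in the ribosome, the 14 head proteins had a median log2 fold change of 3.55 and the 18 body and platform proteins 3.18. By ancestry, the 15 proteins shared by all domains of life had a median of 3.32 and the other 18 had 3.26. In each of these groups every gene was called higher.

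PAP levels were lowest in animal 3 for 33 of the 33 genes, a position that 25.3% of all genes tested had. The small subunit took 4.62%, 4.11% and 2.91% of all counts in the PAP libraries of animals 1, 2 and 3. Over the same libraries, the summed B lineage and plasma cell markers ran 5680, 3390 and 2690 CPM, the summed red blood cell markers 454, 65.1 and 2.63 CPM, and the summed astrocyte markers 3050, 6490 and 11400 CPM. With 3 animals the part of these cells was not tested. Between animals the coefficient of variation of the small subunit genes in PAP had a median of 19.6% (6.02% for Rps27l to 39.5% for Rps10). The 361 other genes tested with a mean of at least 358 CPM in PAP, the level of the lowest small subunit gene, had a median of 31.8%. In Astro the median was 8.99%, against 14.9% for 5495 other genes at a matched minimum.

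To ask which genes stood out from their own subunit, each library was scaled by the summed counts of the 33 genes, and all 14618 genes were fitted again. Of the 33, 2 were then higher and 3 lower (edgeR adjusted p under 0.05), beside 1.07% of all genes tested called higher and 53.7% called lower on this scale, where the rise of the subunit lowers most other genes. Rps2 and Rps19 rose relative to the subunit, and Rps27l, Rps27 and Rps13 fell. Rps2 held 2.84%, 2.64% and 3.40% of the subunit's counts in the Astro libraries and 7.65%, 7.27% and 7.56% in the PAP libraries (relative log2 fold change 1.34, SE 0.30, edgeR adjusted p = 0.0113). For Rps19 the shares were 3.43%, 3.79% and 3.75% against 7.17%, 6.79% and 7.28% (relative log2 fold change 0.95, SE 0.28, edgeR adjusted p = 0.0309). Both genes therefore held a larger part of the subunit's reads in each PAP library than in any Astro library.

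On the other side, Rps27l held 5.26%, 5.28% and 5.74% in Astro and 1.46%, 1.74% and 2.08% in PAP (relative log2 fold change -1.63, SE 0.33, edgeR adjusted p = 0.00791). Rps27 held 3.50%, 3.14% and 3.20% in Astro and 1.29%, 1.32% and 1.51% in PAP (relative log2 fold change -1.26, SE 0.33, edgeR adjusted p = 0.0214). Rps13 held 2.35%, 2.15% and 2.15% in Astro and 0.981%, 1.05% and 0.864% in PAP (relative log2 fold change -1.20, SE 0.37, edgeR adjusted p = 0.0342). All 3 were lower in each PAP library than in any Astro library. With the animal as a block none of the 5 stayed called, with adjusted p of 0.0633 for Rps27l, 0.0667 for Rps2, 0.101 for Rps27, 0.122 for Rps19 and 0.135 for Rps13; at an unadjusted edgeR p under 0.05, 1 of the 33 was higher and 1 lower in that fit. That fit called 0.0684% of all genes higher and 19.4% lower. Without the Astro library of animal 1, 2 or 3, members called higher numbered 0, 0 and 1 and members called lower 1, 1 and 1, beside 0.334% to 0.529% and 34.3% to 35.3% of all genes. Without the PAP library of animal 1, 2 or 3 they numbered 2, 2 and 5 higher and 4, 3 and 5 lower, beside 0.818% to 1.13% and 59.7% to 65.0% of all genes. The directions of the 5 genes held in each of these fits.

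On the log scale, shares of the other genes shifted by less, though Rps14 moved by more percentage points than Rps13 or Rps27. Of all 33, 13 had PAP shares above every Astro share, 12 had PAP shares below, and 8 overlapped; among all genes tested 2.06% and 85.8% lay above and below on this scale. Rpsa went from 1.80% ± 0.201 to 3.26% ± 0.270 (SD, n = 3), Rps20 from 2.64% ± 0.0565 to 4.63% ± 0.179, and Rps27a from 2.71% ± 0.117 to 4.46% ± 0.288. None of these 3 passed the test (edgeR adjusted p = 0.0678, 0.0574 and 0.0822). Rps14, a platform protein near the message exit, had the largest Astro share, 8.14% ± 0.337, and held 4.82% ± 0.118 in PAP (edgeR adjusted p = 0.0566). The 5 leading genes of each library held 28.6% to 30.4% of the subunit's counts in Astro and 32.2% to 34.3% in PAP.

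**Figure D3:**
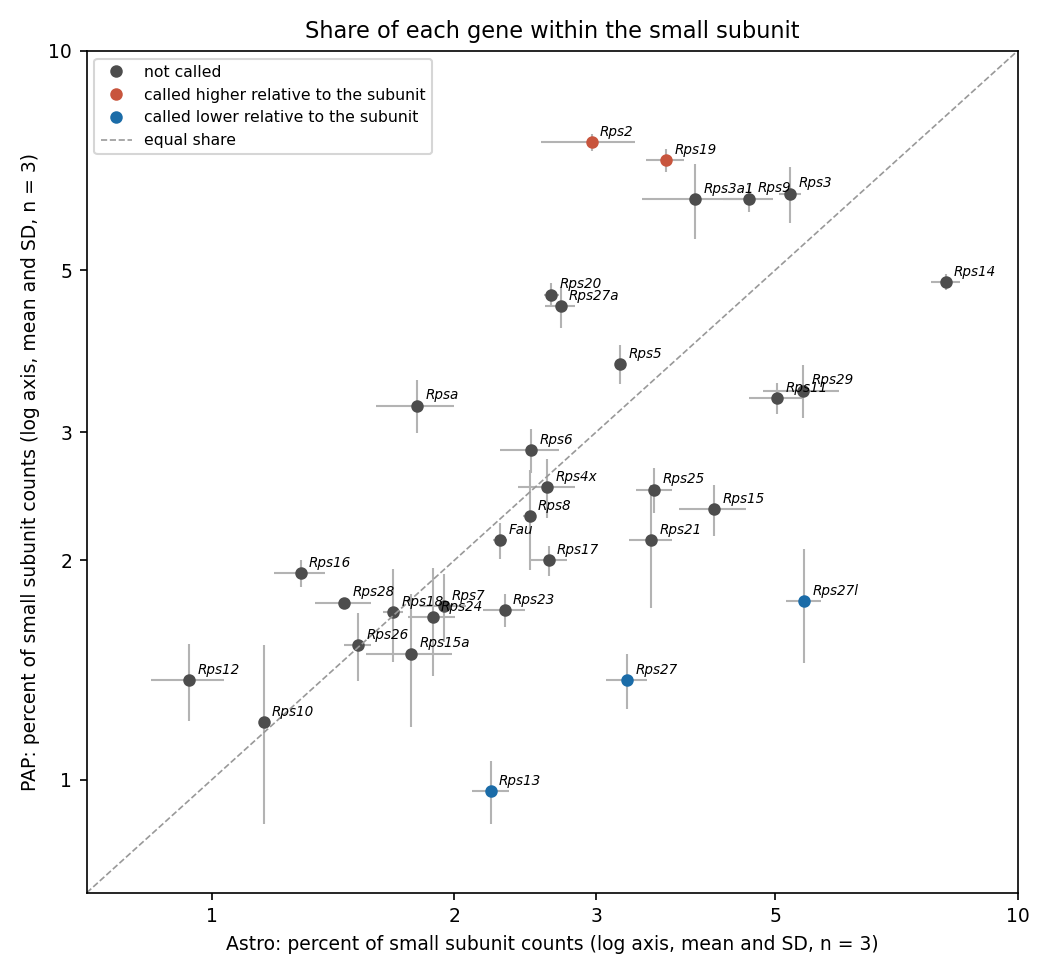
Share of each gene in the summed small subunit counts, Astro on the horizontal and PAP on the vertical axis (both log, mean and SD of 3 libraries); the dashed line is equal share. Rps2 and Rps19 (red, called higher) lie above the line at 7.49% and 7.08% in PAP, and Rps27l, Rps27 and Rps13 (blue, called lower) lie below it.

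The paralogs Rps27 and Rps27l code for near-identical zinc-binding proteins, and their coding sequences are shown because both fell relative to the subunit and reads could in principle be assigned to either. Each is 255 bases long (mm10, annotation release M21) and 61 bases differ, which leaves 76.1% identity; the differing bases are in capitals.
Rps27: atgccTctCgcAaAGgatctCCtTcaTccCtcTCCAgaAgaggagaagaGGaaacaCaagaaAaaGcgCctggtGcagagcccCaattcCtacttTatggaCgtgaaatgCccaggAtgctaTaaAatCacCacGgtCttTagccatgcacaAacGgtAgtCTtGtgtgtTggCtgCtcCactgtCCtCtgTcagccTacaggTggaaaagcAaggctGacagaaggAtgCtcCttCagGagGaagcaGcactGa
Rps27l: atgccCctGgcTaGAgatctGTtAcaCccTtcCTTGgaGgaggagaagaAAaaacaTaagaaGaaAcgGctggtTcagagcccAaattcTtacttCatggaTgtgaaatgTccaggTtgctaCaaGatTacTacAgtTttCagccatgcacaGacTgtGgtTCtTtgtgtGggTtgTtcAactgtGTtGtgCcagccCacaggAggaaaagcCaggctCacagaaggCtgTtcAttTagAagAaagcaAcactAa
No stretch of more than 11 bases is shared without a difference, so a longer read inside the coding sequence spans a differing base. How reads were assigned between the pair was not tested. Rps27l had 1.50, 1.68 and 1.79 counts for each Rps27 count in the Astro libraries of animals 1, 2 and 3 and 1.13, 1.31 and 1.38 in the PAP libraries. The PAP ratios were below every Astro ratio. Rps27 faces another limit, in that only 1.4% of the 50-base stretches of its principal transcript occur in no other annotated gene, against 77.6% for Rps27l. For Rps13 the figure was 17.0%, for Rps2 21.0% and for Rps19 46.4%. Across the 33 genes this uniqueness had a Spearman correlation of -0.04 with the log2 fold change, given as a description over genes that share libraries. The 106 loci whose symbols mark them as pseudogenes of a member (ending in ps) held 0.31% to 0.34% of the members' counts in Astro and 0.47% to 0.63% in PAP. With Rps4l added the order turned, since Astro then held 0.82% to 0.95% and PAP 0.47% to 0.80%. No direction is read from these shares. Pseudogenes under other symbols were not summed.

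Levels of different genes were compared per length, as counts divided by the length of the principal transcript and scaled to the subunit's sum. In Astro the order was led by Rps29, a small zinc-binding head protein (9.45% ± 0.953 of the per-length sum, SD, n = 3), Rps14 (9.29% ± 0.385) and Rps27l (7.41% ± 0.408). In PAP it was led by Rps19 (8.64% ± 0.353), Rps29 (6.77% ± 0.551) and Rps9 (6.45% ± 0.288). Rps19 ranked first in all 3 PAP libraries and from place 8 to place 9 in Astro, whereas Rps27l was number 3 in all 3 Astro libraries and between places 15 and 19 in PAP. The lowest were Rps15a, Rps20 and Rpsa in Astro (0.233%, 0.485% and 0.633%) and Rps15a, Rps24 and Rps20 in PAP (0.223%, 0.798% and 0.965%). The places of Rps15a and Rps20 rest on annotated transcripts of 5179 and 3706 bases, and by coding length they were number 22 and number 11 in Astro and number 24 and number 3 in PAP. The leading gene in PAP also depends on the length used. By coding length Rps29 was number 1 in both compartments. Rps19 was then number 9 in Astro and number 2 in PAP, and Rps24 number 21 and number 22. Of the 32 neighbouring pairs in each order, 19 in Astro and 27 in PAP had overlapping libraries.

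In CPM, Rps29 stood at 212, 218 and 169 in Astro and at 1545, 1376 and 882 in PAP, and Rps14 at 308, 296 and 294 against 2023, 1853 and 1411. Rps24 stood at 80.5, 65.8 and 62.6 against 584, 739 and 493, and Rps15a at 74.6, 69.1 and 53.0 against 779, 563 and 344. None of these 4 overlapped between the compartments. Spearman correlations of the per-length order were 0.977 to 0.991 within Astro, 0.967 to 0.982 within PAP and 0.787 to 0.847 between an Astro and a PAP library, as descriptions over 33 genes. By group mean per transcript length, 22 of the 33 genes moved by up to 3 places, of which 2 kept their place. On that measure Rps2 gained 13 places, and Rps13, Rps27l and Rps27 lost 16, 12 and 10. By coding length the same 4 genes gained 18 and lost 13, 11 and 11, and Rps15 lost 10, against 5 per transcript length.

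The large subunit, the nearest group of genes, was set beside the small one. Small subunit genes took 0.366%, 0.330% and 0.353% of all counts in Astro and 4.62%, 4.11% and 2.91% in PAP, a mean of 0.350% ± 0.0182 against 3.88% ± 0.878 (SD, n = 3). The 52 large subunit genes took 0.538% ± 0.0328 and 5.41% ± 1.19. Small subunit counts per large subunit count were 0.644, 0.657 and 0.651 in Astro and 0.718, 0.724 and 0.709 in PAP. The PAP ratios thus lay above every Astro ratio in counts. Of the 49 large subunit genes tested, 44 rose and none fell, with a median log2 fold change of 2.90; with the animal as a block 27 of the 49 were called. The largest rises there were Rpl10 (4.48), Rplp1 (4.17) and Rpl4 (3.99). Reads of the tagged Rpl10a transgene could add to 1 large subunit gene.

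**Figure D4:**
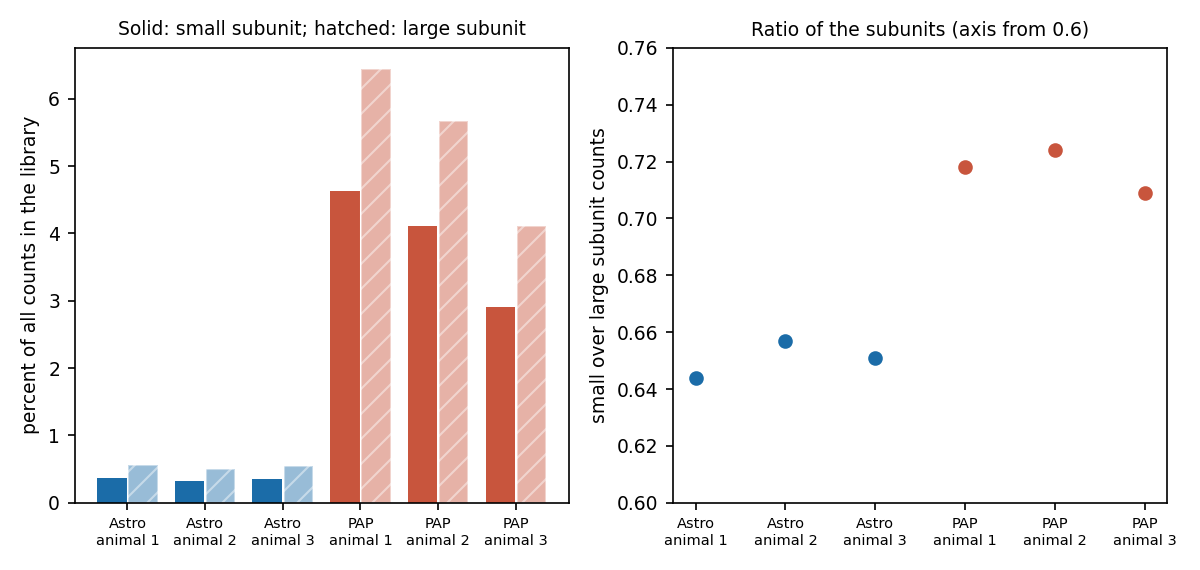
Left, percent of each library's counts in small (solid) and large (hatched) subunit genes; right, the ratio of their counts in each library, on an axis that starts at 0.6. The 3 PAP libraries (red) hold 2.91% to 4.62% in the small subunit against 0.330% to 0.366% in Astro (blue), and their ratios of 0.709 to 0.724 lie above the Astro ratios of 0.644 to 0.657.

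Small subunit messages are short, so length was set beside the fold changes. Their principal transcripts had a median of 761 bases, against 2981 for 12562 other protein-coding genes tested. Among other genes of up to 1000 bases, ribosomal protein genes left out, 45 of 779 (5.78%) were called higher with a median log2 fold change of -0.53, while the 26 small subunit genes of that length had a median of 3.26. Other genes of 1000 to 2000, 2000 to 4000 and over 4000 bases had medians of -0.69, -0.64 and -0.33. Within the subunit, the log2 fold change had Spearman correlations of 0.49 with transcript length and 0.46 with coding length. The same correlations were 0.03 and 0.14 over 49 large subunit genes and -0.03 and -0.02 over the 779 short other genes. Base composition (GC percent) had a correlation of 0.04. The share of the subunit had one of -0.28 in Astro and 0.45 in PAP, and both shares come from the counts behind the fold change. All are descriptions across genes that share the same libraries, and the part of length in the order within the subunit was not tested.

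**Figure D5:**
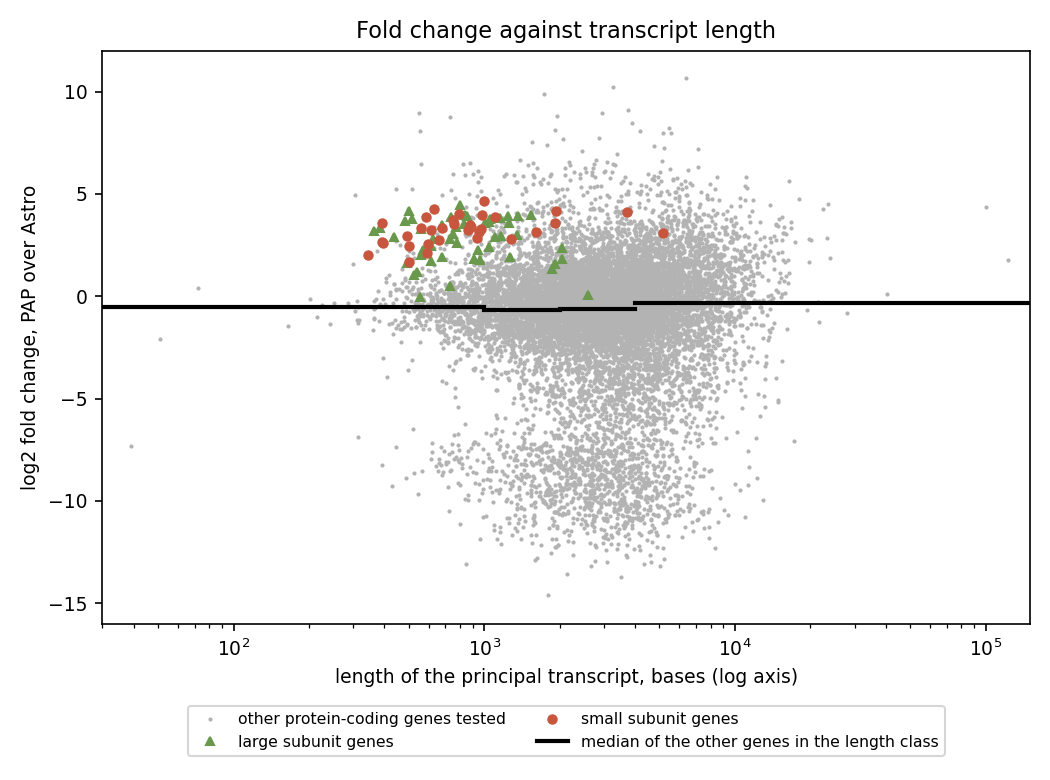
Log2 fold change of PAP over Astro against principal transcript length (log axis) for small subunit genes (red), large subunit genes (green) and other protein-coding genes tested (grey), with black lines at the median of the other genes in each length class. The medians of the other genes lie between -0.69 and -0.33 in every class, while the small subunit genes lie between 1.66 and 4.66.

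Start sites were read for the pyrimidine run that marks ribosomal protein messages. RefSeq start windows (GRCm38.p6) were found for 25 of the 33 genes. A run of 7 or more pyrimidines on the sense strand, within 20 bases either side of at least 1 annotated start, was present in 15 of these 25 (60.0%), in 24 of 39 large subunit genes (61.5%) and in 4492 of 16387 protein-coding genes (27.4%). Of the 25, 4 have several annotated starts; counting only genes with a run at every start, the numbers were 12 of 25, 21 of 39 (53.8%) and 3399 of 16387 (20.7%). Windows of 30 bases, 8 before the start and 22 after it, are shown for Fau, which has the longest run, and for every annotated start of the 3 genes with the largest and the 3 with the smallest fold changes, with the longest run of each window in capitals.
Fau, chr19:6057939-6057968, plus strand: ccccaCTTCTTCCTCTTTCTTgactccatc
Rps2, chr17:24720055-24720084, plus strand: cgagatctcgcgCTTCTTggagcactataa
Rps19, chr7:24884584-24884613, plus strand: TCTCgcgagactcgacgcccgacttgtgcg
Rps19, chr7:24884668-24884697, plus strand: gtgagtgagggCTCTgggtcgcggctgtgc
Rps19, chr7:24884905-24884934, plus strand: cggggtgtggagggCTCTCCCacgcggtca
Rpsa, chr9:120127758-120127787, plus strand: atttaaggacgtcaTTTCCggccgcccgtc
Rps13, chr7:116334169-116334198, minus strand: aacgtcggtgagtggcgtcaCTTCCTgtgc
Rps27, chr3:90213627-90213656, minus strand: ctttcgCTCCTTTCCggcggtgacgacctc
Rps27l, chr9:66946078-66946107, plus strand: TCCCCgccgcctctatcccggaagttgctg
Rps27l, chr9:66946405-66946434, plus strand: gCTTCagggtcactaacgggcctcgcagct
Fau has a run of 16 pyrimidines. Among the largest changes, Rps2 has a longest run of 6, Rpsa of 5 and the 3 starts of Rps19 of 4, 4 and 7. Among the smallest, Rps13 has 6, Rps27 has 9 and the 2 starts of Rps27l have 9 and 4 within the wider stretch searched. Over the 25 genes the longest run at any start had a Spearman correlation of -0.26 with the log2 fold change. A match or its lack describes only these letters around the annotated starts.

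Genes that build the small subunit or act on it were read from the same fit. Of 47 assembly factors tested, 4 rose (8.51%, beside 5.92% of all genes tested) and 1 fell (2.13%, beside 15.4%), with a median log2 fold change of 0.66. The share that rose was near that of all genes. Nop58, a core protein of the methylating nucleolar particles, stood at 16.8, 9.52 and 21.0 CPM in Astro and at 168, 137 and 102 CPM in PAP (log2 fold change 3.11, SE 0.55, edgeR adjusted p = 0.0208). Aatf and Nop14 rose by 3.47 and 2.58 on the log2 scale, and Emg1, an RNA methyltransferase, by 1.49. Noc4l had 105, 125 and 220 counts in Astro and was at 0 in every PAP library; in these amplified libraries a 0 sets no limit on its level. With the animal as a block, or without any 1 Astro library, none of the 47 was called by edgeR. In the blocked fit 4 were higher and 1 lower at an unadjusted edgeR p under 0.05 and the median was -0.29. DESeq2 without the block called 11 higher and 3 lower, beside 1685 and 3456 of all 14618 genes tested.

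A further list held 23 genes that act with the small subunit or in the signalling that sets translation. Of these, 8 rose (34.8%, beside 5.92% of all genes tested) and 1 fell (4.35%, beside 15.4%). Their median log2 fold change was 0.36. Rack1, the scaffold protein that sits on the head beside the message exit, rose to about the same degree as the leading small subunit genes. It stood at 97.9, 81.7 and 101 CPM in Astro and at 2610, 2330 and 1710 CPM in PAP, without overlap (log2 fold change 4.57, SE 0.27, edgeR adjusted p = 0.00196). The translation repressors Eif4ebp2 and Eif4ebp1 rose by 4.02 and 2.23, and the RNA-binding Larp4, Larp4b and Larp1 by 3.18, 2.54 and 2.21. Serbp1, which clamps idle ribosomes, rose by 2.15, and Rnf10, a ligase that marks small subunit proteins with ubiquitin, by 1.12. Mtor fell, with 218, 184 and 286 counts in Astro and 2, 1 and 1 in PAP (log2 fold change -4.32, SE 0.90, edgeR adjusted p = 0.0210). In these amplified libraries counts so low set no limit on its level. In the blocked fit the 23 genes had a median of -0.12 and only Rack1 stayed called (edgeR adjusted p = 0.0151), as it did alone without any 1 Astro library.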

How the data were processed

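Polysomes were pulled down with a GFP antibody from dorsal hippocampus and their RNA was amplified to cDNA before library preparation, per the labels' protocols. The deposited files hold whole-number counts per Ensembl gene for each technical replicate, not normalized. The submitters' processing notes name bcl2fastq 2.18.0.12, Trim Galore 0.4.1, STAR 2.5.2b, SAMtools, HTSeq 0.5.3 and the build mm10. The treatment of reads with several matches, strand and annotation release were not given in the sources used here, so reads of overlapping genes or near-identical copies cannot be told apart.

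Counts of 8 technical replicates were summed per library (n = 3 animals a group). Genes passing filterByExpr (minimum count 10) were fitted with edgeR 4.0.16 (quasi-likelihood test, TMM factors, Benjamini-Hochberg adjustment, threshold 0.05); a second fit scaled libraries by the members' summed counts. The p-values cover the spread between these animals. Same-numbered libraries came from the same animal by label; their deviations correlated at -0.027 to 0.033 over all genes, against -0.054 to 0.033 between different animals, and at 0.158 to 0.325 over members, against -0.228 to -0.048. Symbols, coordinates and lengths came from GENCODE M21 (99.12% of gene IDs matched). The fits were also run on simulated data with known changes, and the outcome is not given here. Alternatives covered scaling, filters, thinning to equal depth, technical replicates 1 to 4 and 5 to 8 alone, DESeq2 1.42.0, the block and left-out libraries. The members, lists and tests were chosen with earlier results of these data known. Genes named with values were those with the 3 largest and smallest changes, the 3 highest and lowest per length in each compartment, those called relative to the subunit, Fau, Rps27a, Rpsa, Rps6, the paralogs, and, in other lists, Rack1 and up to 3 per direction; further called list genes were added after their values were seen.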

Additional observations from a re-analysis of the deposited data

How the results depend on the processing

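Calls of higher members numbered 32 or 33 under the other scalings, filters, thinning, each set of 4 technical replicates alone and DESeq2, 27 with the animal as a replicate block or at an adjusted p under 0.01, and 22 to 33 without 1 library; no member was called lower in any of them. Their median log2 fold change ran from 3.10 to 3.54, and no member changed direction. Over all genes tested, the main fit called 865 of 14618 higher and the other scalings 885 to 929. The number was 571 of 23924 with no filter on low counts and 588 of 10084 with a mean of at least 100. It was 339 of 10945 after thinning and 1685 of 14618 with the DESeq2 test. Technical replicates 1 to 4 and 5 to 8 gave 803 of 13498 and 772 of 13229. For an edgeR adjusted p under 0.01 no such number is given here. Of 5 members called relative to the subunit total (2 higher, 3 lower, beside 1.07% and 53.7% of all genes), the count became 2 with no filter on low counts (1 and 1, beside 0.418% and 36.9%), 8 with a mean of at least 100 counts (3 and 5, beside 0.704% and 56.0%), 3 after thinning (1 and 2, beside 0.375% and 46.0%), 1 at an adjusted p under 0.01 (lower, beside 32.3%), 0 with the replicate block and 1 to 10 without 1 library; the cause was not tested. The Spearman correlation between the Astro and PAP orders, 0.826 per transcript length, was 0.749 by coding length, 0.678 without division by length and, in alternatives chosen after seeing the data, 0.851 by all exonic bases and 0.833 by unique positions. Assembly genes called higher ranged from 0 to 11 and partner genes from 1 to 8. With the block or without 1 Astro library they numbered 0 and 1, beside 0.876% to 1.05% of all genes. The 11 assembly genes were called by DESeq2, beside 1685 of all 14618 genes. After thinning to equal depth Rps26 lost its call (edgeR adjusted p = 0.108) with a log2 fold change of 4.20, against 3.35 without thinning; the lowest member count in any library was 622.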
